A study of Mus musculus with 30 samples.

Results

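CGR8, a mouse embryonic stem cell line, was compared after 5 h of cycloheximide with 0 h, over every gene of the deposited count table. The members are the 3 libraries of each of these times, taken by their column names, and they make up 6 of the 30 libraries of the series. The other libraries hold CGR8 at 1, 2 and 48 h and NIH/3T3 fibroblasts at the same 5 times. All 6 libraries came from cells with the genotype ROSA26 SLT knock-in, a construct at the Rosa26 locus, so the controls carried it too. The cells grew in N2B27 medium with 2i and LIF, which holds stem cells in the naive state by inhibiting MEK and GSK3 and by activating STAT3. The treatment label reads 0.1 µg/mL for every library, the 0 h ones included, and the times tell the groups apart. A vehicle-treated culture at 5 h was not analysed here, so the drug and the time in culture cannot be told apart. A single line was used, and the labels do not say whether replicates were separate cultures. P-values then measure only the spread between these libraries.

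Cycloheximide binds the ribosome and stops elongation, so that ribosomes stall on the messages they were reading. Messages whose decay needs translation, such as targets of nonsense-mediated decay, can then persist, and transcripts kept in check by short-lived proteins can rise. Other messages fall when a short-lived activator is no longer made. How far translation was stopped at the labelled 0.1 µg/mL was not measured here. The naive pluripotency factors, among them OCT4 (gene Pou5f1), NANOG, ESRRB and TFCP2L1, sustain self-renewal in this medium and several of them have short-lived messages or proteins.

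The 6 libraries held 22.5 to 29.9 M counts each (M, mega). Levels are given as CPM, the count per mega-count of the library total after scaling that total by its TMM factor. CPM is a share of the RNA in the library, so a change in RNA per cell is not seen, and in bulk RNA fewer cells of a type and less RNA per cell cannot be told apart. Of the 10 stem cell markers checked, all lay between 149 and 2031 CPM in the 6 libraries. The fibroblast markers Postn and Dcn were at 0 in all 6, and Fbln1 reached 68.3 CPM. The 8 fibroblast markers together summed to 58.4 to 73.4 CPM at 0 h and 34.8 to 41.1 CPM at 5 h. The 16 markers checked for primitive endoderm, trophectoderm, mesoderm and neural cells did not exceed 6.02 CPM, while a wider lineage list held higher members, such as Eomes. The trophectoderm markers summed to 5.28 to 6.30 CPM at 0 h and 1.77 to 2.04 CPM at 5 h. The part of such cells in the results was not tested. At 0 h the library B stood apart, with a chi-square per degree of freedom of 36.2 and 36.3 against A and C. Between A and C it was 3.55. At 5 h no pair was that close, with 31.7 between A and B, 35.6 between B and C and 73.7 between A and C. At 5 h the library C lay nearest to the controls on the leading principal component, with a score of 38.6 against 70.9 and 57.9 for A and B and -3.86 to -22.5 for the controls.

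By edgeR's quasi-likelihood test, 3975 of 15933 genes tested were higher at 5 h (24.9%) and 4327 were lower (27.2%), 52.1% in all at an adjusted p under 0.05. Among them 1196 rose at least 2-fold (7.51%) and 1317 fell at least 2-fold (8.27%). For 8721 genes (54.7%) the libraries of both times did not overlap. Counts of list members below are to be read against these shares. Of the calls of at least 2-fold 47.6% were rises. That share was 52.6% with RLE factors, 52.1% with DESeq2 and 35.1% with library size alone, which moved the median over all genes from -0.01 to -0.12. With both the 0 h library B and the 5 h library C left out, 8375 genes were called.

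**Figure D1:**
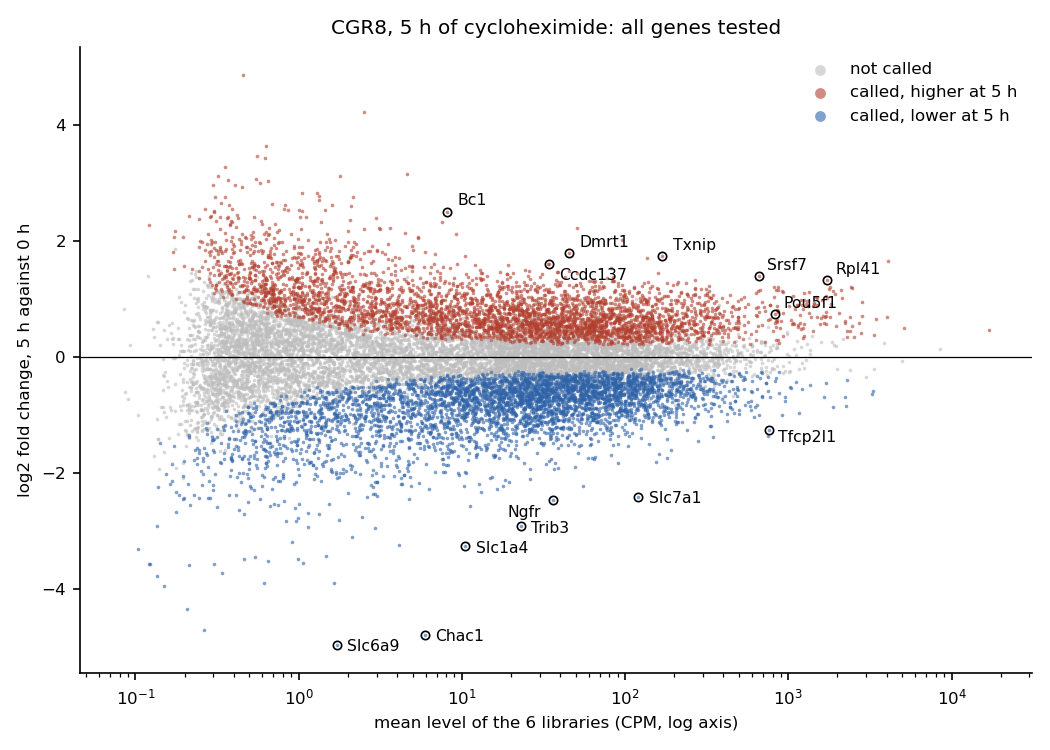
Each point is 1 of the 15933 genes tested, by its mean level over the 6 libraries (CPM, log axis) and its fitted log2 fold change at 5 h against 0 h, in red where called higher, in blue where called lower and in grey otherwise. Slc6a9 and Chac1 lie lowest among the circled genes, at -4.96 and -4.79, and Bc1 lies highest, at 2.51.

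Among the deepest falls were genes of the amino-acid response, which the transcription factor ATF4 drives through a composite C/EBP-ATF element. The core of that element was searched in RefSeq promoters as TGATGNAA on either strand (TTNCATCA on the other), in the 250 bases before the start. The 4 called members of the ATF4 list with the largest falls were Slc6a9, Chac1, Vldlr and Slc1a4. Chac1 and Vldlr have a promoter with a match, and those are shown because the members moved together, with the match in capitals, on build GRCm38.p6 and the plus strand.
Chac1, chr2:119350992-119351241: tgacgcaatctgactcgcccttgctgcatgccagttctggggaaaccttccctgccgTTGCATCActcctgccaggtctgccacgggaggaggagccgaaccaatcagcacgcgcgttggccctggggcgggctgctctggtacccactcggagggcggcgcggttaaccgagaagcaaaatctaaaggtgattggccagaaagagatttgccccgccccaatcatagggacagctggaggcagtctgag
Vldlr, chr19:27216770-27217019: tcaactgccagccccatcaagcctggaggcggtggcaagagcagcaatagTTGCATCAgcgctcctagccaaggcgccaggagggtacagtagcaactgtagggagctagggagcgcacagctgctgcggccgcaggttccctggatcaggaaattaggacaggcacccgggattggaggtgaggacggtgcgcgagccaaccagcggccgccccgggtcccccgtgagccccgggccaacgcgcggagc
The matches begin 193 bases before the start in Chac1 and 200 bases in Vldlr, and both read TTGCATCA. Of the 2 promoters listed for Vldlr only the one shown holds a match, and no promoter listed for Slc6a9 or Slc1a4 holds one. A match was found in 1134 of 32851 promoters (3.45%), in at least 1 promoter of 250 of 10744 tested genes (2.33%) and of 8 of 36 ATF4-list genes with a promoter in the table. Of the 25 among those 36 that fell, 5 have a match, and of the 11 that did not fall, 3 have one. A match is a description of the letters and not a measured binding site.

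Chac1 (ENSMUSG00000027313), which encodes a glutathione-degrading enzyme, was at 10.7, 13.3 and 10.4 CPM at 0 h and at 0.222, 0.736 and 0.311 CPM at 5 h. The groups lay far apart, with a log2 fold change of -4.79 (SE 0.39, edgeR adjusted p 3.9e-07). Slc1a4, a transporter of alanine, serine and cysteine, went from 18.9, 20.3 and 17.8 CPM to 2.27, 1.37 and 2.26 CPM, a log2 fold change of -3.26 (SE 0.21). The cationic amino-acid transporter Slc7a1 went from 200.2, 201.8 and 204.9 CPM to 27.2, 45.0 and 42.1 CPM, and fell by 2.41 (SE 0.21). Every treated library of these transporters was below every control. Slc6a9, a glycine transporter, fell from 2.62 to 3.69 CPM to at most 0.147 CPM. Trib3, a pseudokinase that restrains ATF4, was at 40.5, 46.0 and 35.2 CPM at 0 h and at 5.73, 5.45 and 4.94 CPM at 5 h, and fell by 2.92 (SE 0.29). Vldlr, a lipoprotein receptor, fell by 3.48 (SE 0.41) to at most 0.195 CPM.

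The fall did not extend to all genes of this response. Of 41 ATF4-list members tested, 27 fell, 4 rose and 10 were not called, with a median of -0.91 against -0.01 over all genes. Atf4 itself went from 149, 136 and 144 CPM to 86.5, 55.6 and 61.9 CPM and fell by 1.07 (SE 0.14). Ddit3, the stress factor CHOP, fell by 0.95 (SE 0.19). Asns, asparagine synthetase, was at 660, 886 and 680 CPM at 0 h and at 803, 849 and 720 CPM at 5 h. Its groups overlapped, and the log2 fold change was 0.09 (SE 0.13, edgeR adjusted p 0.58). The 4 members that rose were Slc43a1, Cth, Psph and Cebpg, by 0.59, 0.48, 0.47 and 0.43. They encode a neutral amino-acid transporter, 2 enzymes of cysteine and serine synthesis and a C/EBP partner of ATF4. With 0 h B and 5 h C left out the list gave 23 lower and 6 higher of 41. The cytosolic aminoacyl-tRNA synthetases and their cofactors, which include targets of the same response, gave 8 lower and 5 higher of 23, with a median of -0.02. Iars fell by 0.81 and the cofactor Eef1e1 rose by 0.69. Without 0 h B and 5 h C that split was 3 lower and 8 higher.

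Genes of the endoplasmic reticulum stress response were mostly lower or not called. Of 25 tested, 12 fell and 1 rose, with a median of -0.25, and without 0 h B and 5 h C 12 fell and 4 rose. Herpud1, a factor of ER-associated degradation, went from 24.9, 26.4 and 21.3 CPM to 6.40, 5.06 and 5.64 CPM and fell by 2.08 (SE 0.16). Hspa5, the chaperone BiP, fell by 0.75 (SE 0.10) from 555 to 619 CPM to 325 to 378 CPM, with no overlap. The member that rose was Sec61b, a short subunit of the translocon, by 0.95. Of 19 HSF1 chaperones 8 fell and 3 rose. The mitochondrial co-chaperonin Hspe1 rose by 0.87, and the inducible Hspa1b fell by 1.68. Of 20 NRF2 antioxidant genes 8 fell and 4 rose, and without 0 h B and 5 h C 5 fell and 5 rose. The rises numbered 2 without 0 h A and 2 without 0 h C. Srxn1, sulfiredoxin, fell by 1.30, and the peroxiredoxin Prdx1 rose by 0.60.

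The naive and core pluripotency factors split. Of 25 tested, 14 fell and 5 rose, with a median of -0.34, and without 0 h B and 5 h C 11 fell and 5 rose. Tfcp2l1 (ENSMUSG00000026380), a naive-state factor downstream of STAT3, was at 1102, 994 and 1133 CPM at 0 h and at 303, 506 and 546 CPM at 5 h. Its log2 fold change was -1.25 (SE 0.19, edgeR adjusted p 7.0e-05). Esrrb, an orphan nuclear receptor that sustains self-renewal, went from 874, 888 and 878 CPM to 408, 465 and 448 CPM and fell by 1.00 (SE 0.14). Klf4, a Krüppel-like factor, fell by 0.64 (SE 0.10), from 243 to 251 CPM to 149 to 165 CPM. In none of the 3 did a treated library reach a control.

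The factors that rose were Pou5f1, Zfp296, Nanog, Zfp42 and Nr0b1. Pou5f1 (ENSMUSG00000024406) was at 607, 670 and 575 CPM at 0 h and at 1297, 995 and 809 CPM at 5 h, which is a log2 change of 0.74 (SE 0.15, edgeR adjusted p 0.00070). Its treated libraries spread more widely than its controls, with A the highest. Nanog went from 698, 630 and 679 CPM to 989, 959 and 1127 CPM and rose by 0.62 (SE 0.11). Zfp42, the marker REX1, went from 931, 911 and 966 CPM to 1415, 1438 and 1383 CPM and rose by 0.59 (SE 0.09). Sox2, the partner of OCT4, was at 281, 251 and 265 CPM at 0 h and at 247, 278 and 282 CPM at 5 h. Those groups overlapped, with a log2 fold change of 0.02 (SE 0.09, edgeR adjusted p 0.87). Zfp296 and Nr0b1 rose by 0.73 and 0.59.

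Genes of the formative state and of lineages also split. Of 11 formative and exit genes 5 fell and 2 rose, and 1 rose without 0 h A, 0 h C, 5 h A or 5 h B. Foxd3, a repressor needed in stem cells, went from 48.1, 50.1 and 43.0 CPM to 14.8, 18.7 and 17.3 CPM and fell by 1.48 (SE 0.15). Otx2, a factor of the formative state, rose by 1.17 (SE 0.20), from 6.46, 7.79 and 6.99 CPM to 15.9, 15.9 and 16.0 CPM. Of 16 tested lineage markers 6 fell and 2 rose. The largest fall was that of Eomes, a T-box factor, from 22.9, 21.6 and 21.5 CPM to 4.09, 4.27 and 4.86 CPM, or 2.31 (SE 0.15). The rise of Pax6, a neural factor, by 0.71 was lost when any of 4 single libraries was left out, with edgeR adjusted p from 0.084 to 0.13 without 0 h A, 0 h B, 5 h A or 5 h B. Of the DNA methylation genes, Dppa3, a protector of maternal methylation, rose by 1.41 and the dioxygenase Tet3 fell by 1.48. In all, 3 of 11 fell (27.3%) and 1 rose (9.09%), against 27.2% and 24.9% over all genes. That count of lower genes was 5 without 0 h B, without 5 h C and without both.

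**Figure D2:**
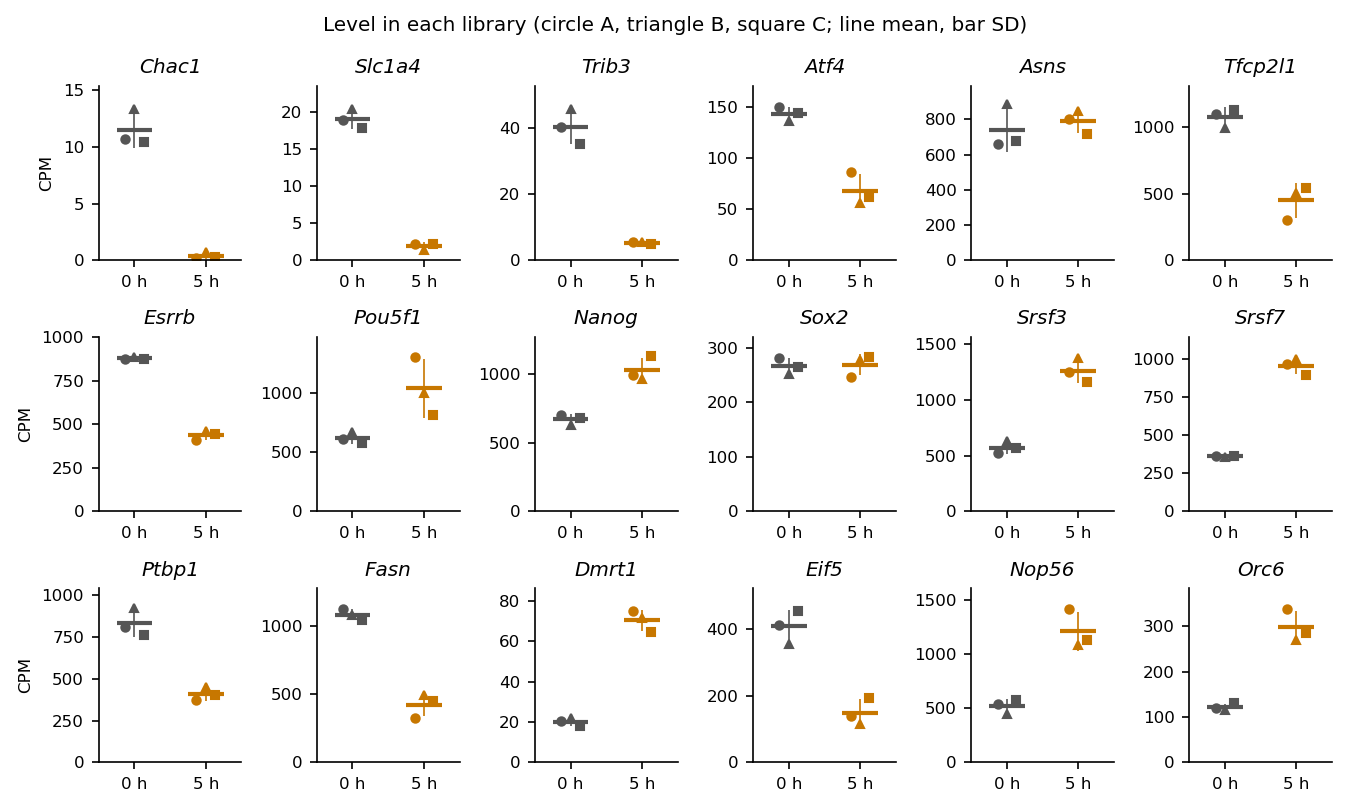
Level in CPM of 18 genes in the 3 libraries at 0 h (grey) and the 3 at 5 h (orange), each panel on its own axis from 0, with the group mean as a line and the SD as a bar. Asns and Sox2 overlap between the times, Chac1 and Trib3 fall near the bottom of their axes, and Pou5f1 spreads from 809 to 1297 CPM at 5 h.

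Outputs of the pathways that the medium controls were lower or not called, with few exceptions. Of 15 LIF and STAT3 genes 9 fell and 2 rose, with a median of -0.74. The largest fall was that of Tfcp2l1, which is also in the pluripotency list, so the counts of these lists are not independent. The cytokine-inducible inhibitor Socs2 went from 78.0, 67.1 and 77.2 CPM to 37.8, 39.3 and 43.3 CPM and fell by 0.88 (SE 0.10). Socs3, the feedback inhibitor of the LIF receptor, was at 97.4 to 120 CPM and at 88.3 to 101 CPM, overlapping groups with a log2 fold change of -0.16 (edgeR adjusted p 0.35). The 2 that rose were the kinase Pim2, by 0.91, and Junb, by 0.80. Of 15 Wnt targets 11 fell and 1, Sp8, rose, with a median of -0.69. Axin2, a scaffold of the destruction complex and a direct target, went from 82.1, 78.4 and 80.9 CPM to 36.0, 39.7 and 40.9 CPM and fell by 1.05 (SE 0.11). Nkd1, another feedback inhibitor of Wnt signalling, fell by 1.73 from at most 2.22 CPM. The call of Sp8 was lost without 0 h B and 5 h C (edgeR adjusted p 0.086), and its groups overlapped. Of 13 genes in the ERK feedback list 7 fell and 0 rose. Dusp10, in that list though a phosphatase mainly of JNK and p38, fell by 1.25, and Spry4 fell by 0.77. Dusp6, the phosphatase of ERK, did not fall. It was at 51.2 to 55.4 CPM and at 56.2 to 60.8 CPM, a log2 fold change of 0.16 (edgeR adjusted p 0.17).

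Other short-lived regulators behaved in several ways. Of 33 immediate-early genes 18 fell and 4 rose. The 4 were Klf10, Junb, Mcl1 and Btg2. Klf10, a repressor induced by TGF-beta, went from 50.5, 55.6 and 50.3 CPM to 74.6, 99.5 and 99.9 CPM and rose by 0.81 (SE 0.11). Myc, the growth-promoting factor, went from 62.7, 64.5 and 64.3 CPM to 37.2, 39.8 and 38.6 CPM and fell by 0.73 (SE 0.14). Of 12 NF-kB factors and inhibitors 8 fell and 0 rose, led by Tnfaip3, a ubiquitin-editing inhibitor, at -0.97, and Tnip1, its binding partner, at -0.96. Of 17 clock genes 8 fell and 0 rose. Nr1d1, the repressor REV-ERB alpha, went from 17.2, 18.6 and 14.1 CPM to 3.33, 4.07 and 5.17 CPM and fell by 1.98 (SE 0.16).

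The sensor of glucose and redox state TXNIP and its relatives moved apart. Txnip was at 77.9, 74.6 and 80.0 CPM at 0 h and at 269, 244 and 267 CPM at 5 h, and rose by 1.75 (SE 0.12). Of the 11 alpha-arrestin and Mondo genes tested 4 rose and 6 fell. Arrdc4, Arrdc3 and Mlx, 2 alpha-arrestins and the partner of the glucose-sensing Mondo factors, rose by 1.19, 1.14 and 0.46. Arrdc2, another alpha-arrestin, fell by 0.87 (SE 0.15). The glucose transporters Slc2a1 and Slc2a3 and hexokinase 2, Hk2, fell by 0.80, 0.82 and 0.74.

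Several RNA-binding protein genes that carry poison exons, alternative exons that send the message to nonsense-mediated decay, rose. Of 32 SR, hnRNP and splicing-kinase genes 14 rose and 5 fell. Srsf7, a splicing factor, was at 362, 357 and 366 CPM at 0 h and at 968, 1004 and 900 CPM at 5 h, a rise of 1.40 (SE 0.13, edgeR adjusted p 1.2e-06). Srsf3, which regulates its own poison exon, went from 520, 629 and 564 CPM to 1246, 1377 and 1162 CPM and rose by 1.14 (SE 0.11). Both groups were clearly separated in both genes. Ptbp1, the polypyrimidine tract binding protein, went the other way, from 810, 919 and 759 CPM to 370, 451 and 400 CPM, or -1.03 (SE 0.13). The other 4 that fell were Srsf4, Hnrnpu, Hnrnpm and Hnrnpd. The counts are per gene, so isoforms with and without a poison exon were not told apart.

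Non-coding hosts of small nucleolar RNAs, whose spliced RNAs are decayed during translation, gave 5 rises and 0 falls of 15 tested. Gas5 went from 174, 115 and 185 CPM to 368, 226 and 276 CPM and rose by 0.87 (SE 0.22). Zfas1 was at 49.9, 12.1 and 50.5 CPM at 0 h and at 233, 81.0 and 145 CPM at 5 h, which is a log2 change of 2.03 (SE 0.61), and its call was lost without 5 h A (edgeR adjusted p 0.053). In both genes the libraries B were the lowest of their time. The median of the list was 0.63, and 0.28 without 0 h B, and 3 members rose without 5 h A. Without 5 h B the median was 0.97. With voom and sample quality weights the direction turned, with 5 higher, 3 lower and a median of -0.09. Among 18 decay factors themselves 3 rose (16.7%) and 4 fell (22.2%), against 24.9% and 27.2% over all genes. Without 0 h B and 5 h C 3 rose and 7 fell. Magoh, a core subunit of the exon junction complex, rose by 0.83. The kinase Smg1 fell by 1.00 with overlapping groups, and its edgeR adjusted p was 0.074 to 0.11 without 0 h A, 0 h C, 5 h A or 5 h B. Without 5 h C its fall was 1.50.

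**Figure D3:**
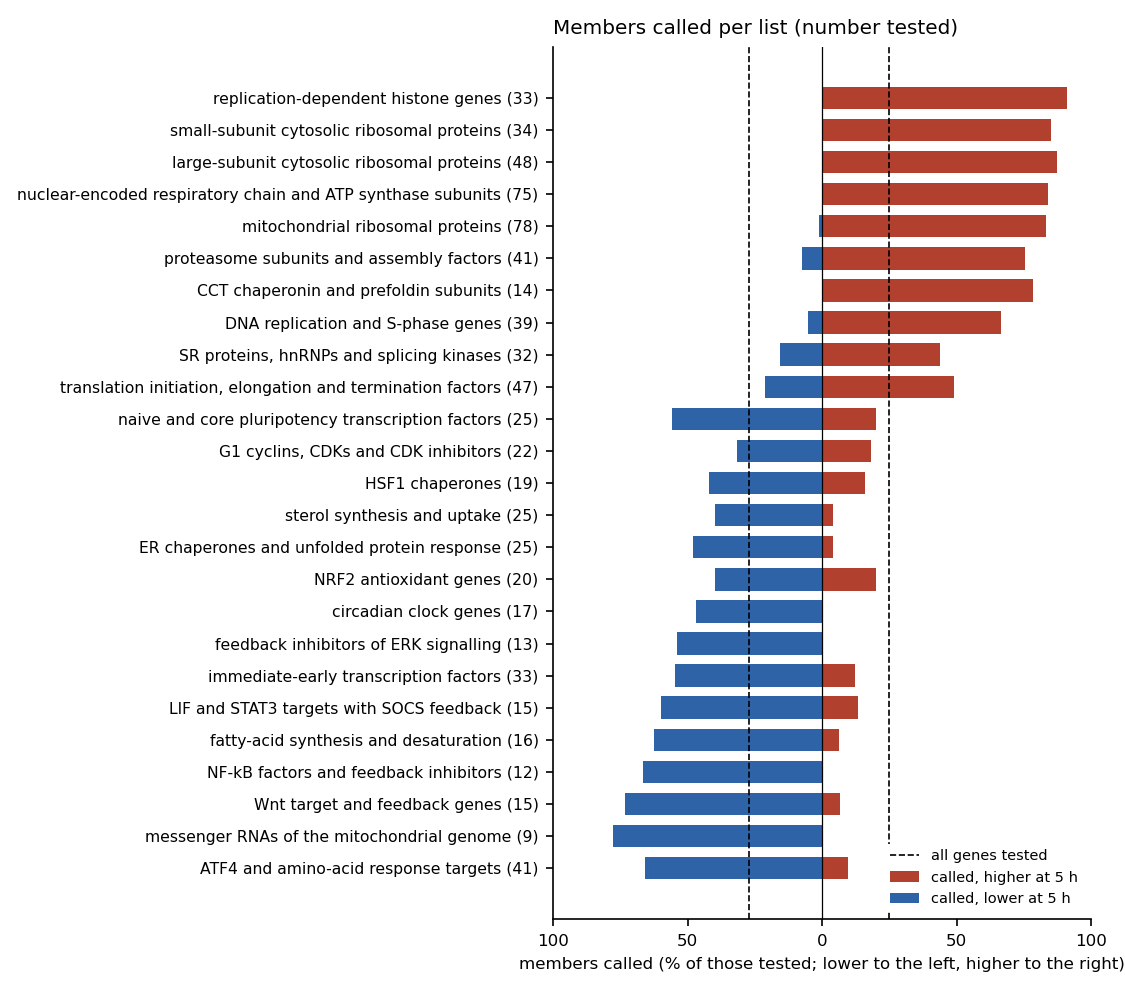
Share of the tested members of 25 gene lists that were called higher (red, to the right) or lower (blue, to the left) at 5 h, with the number tested in brackets and dashed lines at the shares over all genes, 24.9% and 27.2%. Histones, ribosomal proteins and respiratory subunits reach farthest to the right, and the ATF4, Wnt and mitochondrial-genome lists reach far to the left.

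Genes of large protein machines rose together at modest size. Of 48 large-subunit ribosomal proteins 42 rose and 0 fell, with a median of 0.79, and of 34 small-subunit ones 29 rose and 0 fell, with a median of 0.90. Rpl41, a protein of the large subunit, was at 1060, 907 and 975 CPM at 0 h and at 3413, 2153 and 1859 CPM at 5 h, a rise of 1.34 (SE 0.23). The same order of the treated libraries, A above B above C, was seen in Rps21, at 1414, 1152 and 861 CPM after 437 to 564 CPM at 0 h. Counts of ribosomal protein genes are uncertain because near-identical pseudogenes share their reads. Rps29 was at 731, 1097 and 679 CPM at 0 h and at 1420, 1193 and 786 CPM at 5 h, overlapping groups with a log2 fold change of 0.44 (edgeR adjusted p 0.090). It was called without 0 h B (0.70, edgeR adjusted p 0.011) and without 5 h C (0.64, 0.011).

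Mitochondrial proteins encoded in the nucleus moved in the same direction. Of 78 mitochondrial ribosomal proteins 65 rose and 1, Mrps2, fell, and of 75 respiratory chain and ATP synthase subunits 63 rose and 0 fell. Their medians were 0.70 and 0.74. Ndufb4, a subunit of complex I, went from 16.9, 15.6 and 18.0 CPM to 51.6, 38.4 and 41.4 CPM and rose by 1.38 (SE 0.16). Messages of the mitochondrial genome were lower instead. Of 9 tested, 7 fell and 0 rose, with a median of -0.60. The oxidase subunit mt-Co1 was at 2114, 1793 and 2186 CPM at 0 h and at 996, 1046 and 1749 CPM at 5 h, and fell by 0.68 (SE 0.19). The 5 h library C lay close to the controls there. Without it the median of the list was -0.91, and 4 members were called lower without 0 h C and without 5 h B.

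Proteasome subunits, the chaperonin CCT with prefoldin, and replication genes also rose. Of 41 proteasome genes 31 rose and 3, Adrm1, Psme4 and Psme3, fell, with a median of 0.68. Psma7, of the core particle, was at 200.1, 237 and 208 CPM at 0 h and at 499, 446 and 379 CPM at 5 h, a rise of 1.04 (SE 0.14). The ubiquitin receptor Adrm1 fell by 0.86 (SE 0.16). Of 14 CCT and prefoldin subunits 11 rose and 0 fell, and Pfdn5 rose by 1.28 (SE 0.15). Of 39 replication genes 26 rose and 2, Pole and Cdt1, fell, with a median of 0.44. Orc6, a subunit of the origin recognition complex, went from 120, 115 and 130 CPM to 338, 271 and 285 CPM and rose by 1.29 (SE 0.12). Mcm2, of the replicative helicase, was at 680 to 751 CPM and at 622 to 725 CPM, with a log2 fold change of -0.09 (edgeR adjusted p 0.44).

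Translation factors and ribosome biogenesis genes were mixed. Of 47 translation factors 23 rose and 10 fell. Eif1b, a start-codon factor, went from 11.0, 11.4 and 10.1 CPM to 31.4, 29.7 and 23.9 CPM and rose by 1.38 (SE 0.13). Eif5, which counteracts EIF1 at the start codon, went from 414, 356 and 457 CPM to 139, 115 and 194 CPM and fell by 1.45 (SE 0.23). The elongation factor Eef2, the translocase, fell by 0.59 (SE 0.15), and without 0 h B and 5 h C by 0.36 (edgeR adjusted p 0.076). Of 52 ribosome biogenesis genes 14 rose (26.9%) and 10 fell (19.2%), against 24.9% and 27.2% over all genes. Nop56, a box C/D core protein whose introns host small nucleolar RNAs, went from 542, 446 and 576 CPM to 1417, 1087 and 1128 CPM and rose by 1.22 (SE 0.17). Ncl, nucleolin, was at 3118 to 4057 CPM and at 2941 to 3213 CPM, with a log2 fold change of -0.21 (edgeR adjusted p 0.15).

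Replication-dependent histone genes lack a poly(A) tail in their mature form and were counted at low levels. Of 61 listed, 33 passed the filter, 30 of them rose and 0 fell, with a median of 1.59. A gene can pass through the group in which it is higher, so this count does not stand for the whole family. Hist1h1a, a linker histone, was at 0.739, 1.05 and 0.879 CPM at 0 h and at 3.73, 5.10 and 3.58 CPM at 5 h, a rise of 2.22 (SE 0.24). Copies of these genes share sequence, so their counts are uncertain.

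Cell cycle and death regulators went in both directions, as did all genes tested. Of 22 G1 genes 7 fell (31.8%) and 4 rose (18.2%), against 27.2% and 24.9% over all genes. The CDK inhibitor Cdkn2d was at 9.70, 11.5 and 10.8 CPM at 0 h and at 31.0, 26.4 and 24.1 CPM at 5 h, a rise of 1.35 (SE 0.13). The others that rose were Ccne2, Cdkn2a and Cdkn1b. Ccnd2, a D-type cyclin, fell by 1.53 (SE 0.19) and Ccnd1, another, fell by 0.64 (SE 0.11). Of 36 G2 and mitosis genes 9 rose and 13 fell, led by the checkpoint protein Mad2l1 at 0.68 and by the proliferation marker Mki67 at -0.98. Of 15 BCL2-family genes Bik, Mcl1 and Bax rose, and Hrk, Bid, Bcl2l11 and Bbc3 fell. Only 1 rose without 0 h A and only 1 without 5 h A. Mcl1, the short-lived survival factor, went from 308, 313 and 314 CPM to 439, 432 and 417 CPM and rose by 0.46 (SE 0.08). Hrk, a BH3-only death factor, fell from 1.84 to 2.02 CPM to at most 0.344 CPM, a log2 fold change of -3.55 (SE 0.40).

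Lipid genes were lower or not called, with few exceptions. Of 16 fatty-acid genes 10 fell and 1, Acsl4, rose, with a median of -0.57. Fasn, fatty acid synthase, was at 1124, 1082 and 1047 CPM at 0 h and at 330, 497 and 448 CPM at 5 h, and fell by 1.35 (SE 0.16). The groups of Acsl4 overlapped and its call was lost without 0 h B, 5 h B or 5 h C (edgeR adjusted p 0.055 to 0.11), with a value of 0.39 without 5 h C. Of 25 sterol genes 10 fell, 14 were not called and 1, Pmvk, rose. The call of Pmvk was lost without 0 h A, 0 h C, 5 h A or 5 h B (edgeR adjusted p 0.061 to 0.070) and in the fit of the 6 libraries alone (0.058). Hmgcs1, the entry enzyme of the mevalonate pathway, overlapped at 197 to 224 CPM and 157 to 199 CPM, with a log2 fold change of -0.23 (edgeR adjusted p 0.18). Of 22 glycolysis genes 7 fell (31.8%) and 3 rose (13.6%), against 27.2% and 24.9% over all genes. Without 0 h B and 5 h C 4 fell and 8 rose. The median of that list was -0.11, and 0.03 without 0 h B. Ldhb, lactate dehydrogenase B, rose by 0.83 (SE 0.14), and the lactate transporter Slc16a1 fell by 0.85 (SE 0.13).

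Among the genes outside these lists with the largest changes, some have little known tie to translation. Dmrt1, a DM-domain factor of germ cells, was at 20.7, 22.2 and 17.9 CPM at 0 h and at 75.2, 71.4 and 64.9 CPM at 5 h, a rise of 1.80 (SE 0.11, edgeR adjusted p 1.1e-07). The other rises among the 12 largest included Tex21, Hal (histidine ammonia-lyase), Pet100 (an assembly factor of the cytochrome oxidase), Efcab7, Ccdc137, Plac9a and Polr2k (a shared RNA polymerase subunit), at 1.60 to 2.13. Among the falls, the neurotrophin receptor Ngfr went from 60.1, 69.5 and 55.0 CPM to 11.1, 11.0 and 11.2 CPM, or -2.47 (SE 0.15). Ccni, cyclin I, went from 89.5, 102 and 83.5 CPM to 19.0, 18.0 and 21.8 CPM, or -2.22 (SE 0.14). Ttyh2, Tns1, Zdhhc23, Il6ra and Zfp423 had log2 fold changes of -2.57 to -2.22. Of the 12 largest rises and 12 largest falls, AA465934, Zfas1, Txnip, Pet100, Efcab7, Eomes, Il6ra and Ccni overlap another annotated gene, as do Slc6a9, Pou5f1, Tfcp2l1, Ptbp1, Eif5, Nop56 and others among the genes described above. Overlaps on the same and on the opposite strand were not told apart here. The counts of these genes are uncertain where the counting ignored strand and, for an overlap on the same strand, also where it did not.

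The direction of change followed the length of the transcript. Among genes of at least 5 CPM, split into quintiles of the annotated length, the shortest (up to 1939 bases) had a median log2 fold change of 0.49, with 57.6% higher and 6.95% lower. The longest (5329 bases and more) had a median of -0.52, with 6.03% higher and 57.2% lower, against 27.5% and 33.3% over all genes of that level. The medians of the treated libraries in the shortest quintile were 0.64, 0.50 and 0.27 above the mean of the controls for A, B and C, and in the longest they were -0.82, -0.48 and -0.28. The 0 h library B leaned the same way, at 0.15 and -0.12, while A and C lay at -0.07 and -0.08 and at 0.06 and 0.07. By GC content, the lowest quintile had a median of 0.18 and the highest -0.36, and there 0 h B leaned the other way, at -0.13 and 0.10. In the lowest GC quintile the treated libraries A, B and C lay at -0.025, 0.164 and 0.356, so A did not share the rise. In the highest they lay at -0.234, -0.335 and -0.463. Genes of 1 to 4 exons had a median of 0.30, with 44.6% higher and 18.0% lower. Those of 18 exons and more had a median of -0.48, with 4.26% higher and 59.7% lower. Length and number of exons were not told apart here. The part of RNA quality or library preparation in these slopes was not tested.

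**Figure D4:**
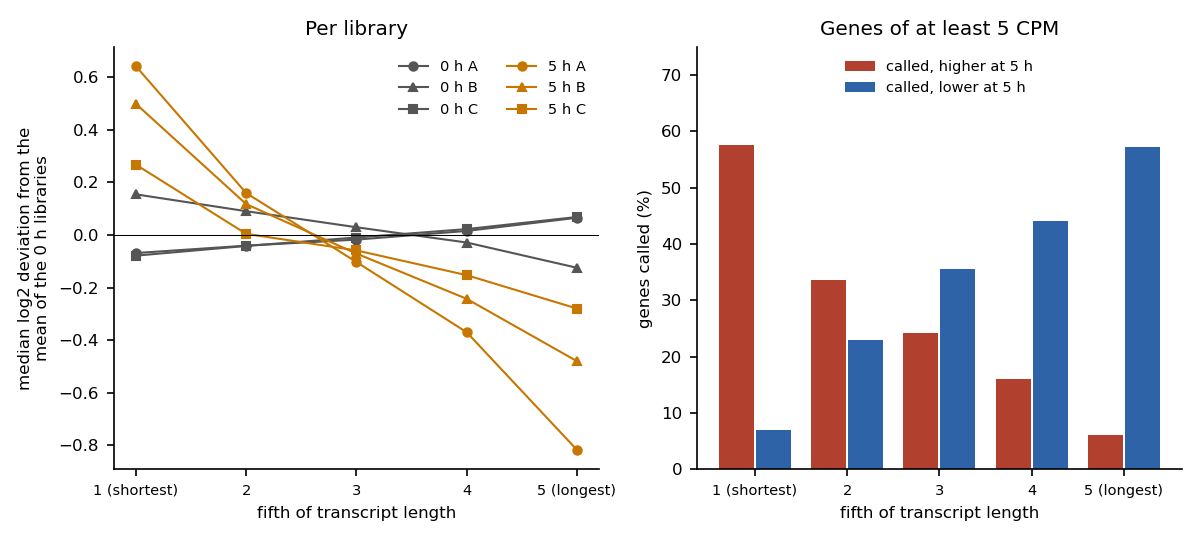
Left, the median log2 deviation of each of the 6 libraries from the mean of the 3 controls in 5 quintiles of transcript length (pseudocount 0.5 CPM), 0 h in grey and 5 h in orange. Right, the share of genes of at least 5 CPM called in each quintile, where higher genes go from 57.6% in the shortest to 6.03% in the longest.

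Lists of short genes were therefore set against genes of their own quintile of length. The shortest quintile spans 60 to 1939 bases, so a length trend within it was not taken out, and the members count in its median. Relative to the median of the quintile of each member, and for members of at least 5 CPM, the median was 0.40 for large-subunit and 0.50 for small-subunit ribosomal proteins, 0.49 for mitochondrial ribosomal proteins, 0.32 for respiratory subunits and 0.30 for the proteasome. For CCT and prefoldin it was 0.24, and for replication genes, which are not short, 0.34. Only 2 histone genes reached that level. The messages of the mitochondrial genome are short and lay at -1.18. For lists that were lower, the values were -0.71 for ATF4 targets, -0.80 for Wnt targets, -0.37 for fatty-acid genes and -0.26 for the pluripotency factors. For LIF and STAT3 genes it was -0.26.

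Earlier times show when these levels moved. They share the 0 h libraries, so their values are given side by side and are not independent. Atf4 had means of 143, 82.8, 65.5, 68.0 and 86.3 CPM at 0, 1, 2, 5 and 48 h, and was already lower at 1 h (edgeR adjusted p 0.0155). Chac1 was at 11.5, 7.24, 1.02, 0.423 and 1.62 CPM, while Slc1a4 was at 19.0, 17.3, 14.5, 1.97 and 3.06 CPM, most of its fall lying between 2 h and 5 h. Srsf7 was at 362, 435, 581, 958 and 435 CPM, and Dmrt1 at 20.3, 19.8, 26.5, 70.5 and 19.8 CPM, both near their 0 h level again at 48 h. Txnip was at 77.5, 276, 328, 260 and 97.0 CPM, highest at 2 h. Esrrb was at 880, 796, 668, 440 and 929 CPM. Junb was at 17.4, 31.4, 14.3, 30.3 and 13.7 CPM, higher at 1 h (edgeR adjusted p 0.0061) and 5 h but not at 2 h (edgeR adjusted p 0.13).

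The 5 h response was set against that of NIH/3T3 by the interaction in a fit of all 30 libraries. Of 17549 genes 8.18% had a more positive and 5.09% a more negative change in the stem cells. Which side held more genes followed the scaling: the share of more positive genes was 61.6% with TMM, 45.9% with RLE factors and 31.5% with library size alone. It was 28.6% without the CGR8 5 h library A and 30.1% without B. The median difference was 0.13 over the 15882 genes that were also tested in the fit of CGR8 alone. Socs2 fell by 0.88 in CGR8 and was 2.35 higher in NIH/3T3, a difference of -3.14 (SE 0.19, edgeR adjusted p 2.3e-11). Serpinb9b and Mcf2l fell in CGR8 and were 0.91 and 1.93 higher in NIH/3T3. Atf4 fell by 1.07 in CGR8 and was 0.71 higher in NIH/3T3, a difference of -1.69 (SE 0.18). Junb and Steap3, an iron reductase, went the other way, rising by 0.80 and 1.09 in CGR8 with -1.18 and -0.76 in NIH/3T3. Among the lists, 12 of 17 clock genes had a more negative and 1 a more positive change in CGR8. Of 39 replication genes 27 had a more positive and 0 a more negative one, but only 8 were more positive without the CGR8 5 h library A, 13 without B and 15 with library size alone.

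**Figure D5:**
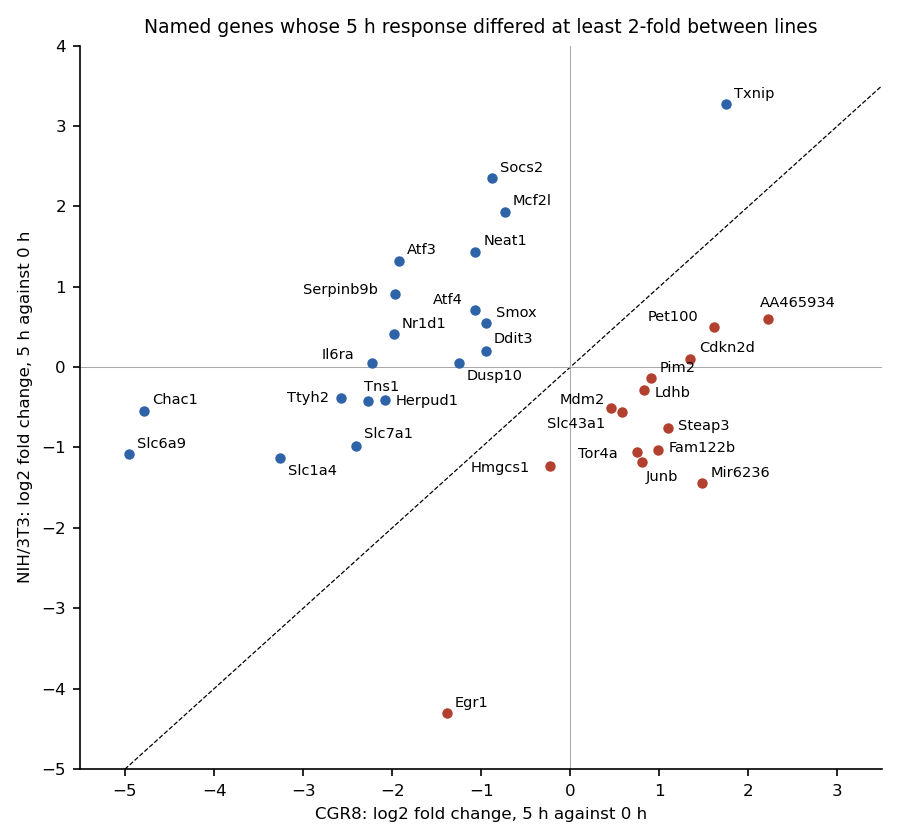
Log2 fold changes at 5 h in CGR8 (horizontal) and NIH/3T3 (vertical) for the genes described here whose responses differed at least 2-fold at an adjusted p under 0.05 and were tested in both lines. Points above the dashed line of equal change (blue) were more negative in CGR8, such as Chac1 and Socs2, and points below it (red) were more positive, such as Egr1 and Junb.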

How the data were processed

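Poly(A) RNA of 30 libraries was sequenced from a stranded ligation kit, per the labels' protocols. The authors deposited whole-number read counts per gene as 1 table. STAR, DESeq2 and GRCm39 are named in the submitters' processing notes, with no role, and the counting tool, strand setting and annotation release are not given in the sources used here. Symbols and lengths came from GENCODE M21 (GRCm38), which matched 51880 of 57186 identifiers. Genes passing filterByExpr (minimum count 10, minimum total 15) were scaled by TMM and tested with edgeR 4.0.16 (quasi-likelihood F test, R 4.3.3) over the 15 CGR8 libraries, 1 coefficient per time. P-values were Benjamini-Hochberg adjusted over all genes tested and called under 0.05. SE is the fold change divided by the root of F. The interaction with NIH/3T3 was fitted over 30 libraries in the same way. The test was tried on simulated data.

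Totals of 22.5 to 29.9 M counts in the 6 libraries set the precision, and p-values cover the spread between libraries. Libraries of the same letter correlated between 0 h and 5 h at -0.10, 0.42 and 0.42 for A, B and C, and 0 h A correlated with 5 h C at 0.39. With 3 libraries per time these values cannot tell whether the letters pair the libraries. The main fit took no account of the letters. Alternatives were RLE factors, library size alone, no filter, a mean of at least 5 CPM, the 6 libraries alone, DESeq2 1.42.0, limma 3.58.1 (voom with sample weights), a replicate block, each library left out and, chosen after seeing the data, 0 h B and 5 h C left out together. Genes named were the 12 largest rises and 12 largest falls of at least 10 CPM without overlap (predicted genes and pseudogenes passed over), the largest called rise and fall of each of 44 lists at 1 CPM or more, 55 anchor genes and the 5 largest differences from NIH/3T3 each way. Other names, such as all risers of a list with few, were chosen after their values were seen. One gene that the rule names is not reported here. The comparison and the lists were chosen with earlier results of these data known.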

Additional observations from a re-analysis of the deposited data

Results flagged for a closer look

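The 5 h response of 35 named genes differed between CGR8 and NIH/3T3 by the interaction test, by at least 1 on the log2 scale at an edgeR adjusted p under 0.05. Values in brackets are the log2 fold change in CGR8 minus that in NIH/3T3, so a negative value is a lower response in the stem cells. In the amino-acid and ER stress response, the more negative differences were Chac1 (-4.16), Slc6a9 (-3.79), Slc1a4 (-2.03), Slc7a1 (-1.34), Atf3 (-3.16), Atf4 (-1.69), Ddit3 (-1.06) and Herpud1 (-1.58). Slc43a1 of the ATF4 list went the other way (1.23). With differences of any size counted, 11 of 41 ATF4-list members were more negative in CGR8 and 7 were more positive. Without the CGR8 5 h library A these counts were 15 and 4, and with library size alone 16 and 5. Of 25 ER stress genes 3 were more negative and 3 were more positive. That balance was 5 and 0 without the CGR8 5 h library A or B, and 5 and 1 with library size alone. Over all 17549 genes 5.09% were more negative and 8.18% were more positive. Regulators and other genes with a more negative response were Txnip (-1.44), Ttyh2 (-2.10), Tns1 (-1.76), Il6ra (-2.19), Dusp10 (-1.22), Nr1d1 (-2.31), Smox (-1.41), Socs2 (-3.14), Serpinb9b (-2.79), Mcf2l (-2.58) and Neat1 (-2.41). Genes with a more positive response were AA465934 (1.72), Hal (2.55), Pet100 (1.21), Pim2 (1.13), Slc43a1 (1.23), Ldhb (1.20) and Cdkn2d (1.33). The others on that side were Hist1h4k (3.35), Egr1 (3.01), Hmgcs1 (1.09), Mdm2 (1.05), Tor4a (1.89), Steap3 (1.94), Junb (2.07), Fam122b (2.10) and Mir6236 (3.01). Hal and Hist1h4k were not tested within NIH/3T3 because their counts there did not pass the filter of that line. The difference of Neat1 was lost without the CGR8 0 h library A (edgeR adjusted p 0.068) and without C (0.054).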

How the results depend on the processing

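Of 8302 genes called, the number ranged from 7128 to 8273 with 1 of the 6 libraries left out and from 6153 (mean of at least 5 CPM, fewer genes tested) to 10048 (voom with sample weights) under the other alternatives. Calls of at least 2-fold numbered 2513, 2153 to 3060 with 1 library left out, and 1084 among genes of at least 5 CPM, where fewer genes were tested. With the replicate block 8273 genes were called, and 2342 differences from NIH/3T3 against 2329 without it. The share of those differences more positive in CGR8 was 61.6%, and 31.5% with library size alone. It ranged from 28.6% to 63.1% with 1 of 12 libraries left out, with 30.1% without the CGR8 5 h library B, and the cause was not tested. The number of differences ranged from 1601 to 3237. Of 148 named genes, 148 kept their side of the threshold with RLE factors and with the replicate block, 147 with DESeq2, 140 to 144 with 1 library left out and 135 without 0 h B and 5 h C. None changed direction while called in the alternatives run. Differences under about the spread of the 3 libraries, and genes of few counts, were not detectable.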
